A study of Mus musculus with 12 samples.

Results

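Cerebellar microglia were compared with forebrain microglia after 24 hours in IL-34, 3 libraries against 3. These are the 6 libraries of a series of 12 that the labels place in IL-34 at 100 ng/ml, and they were picked out by the labels of region and ligand. Microglia, the resident macrophages of the brain, were primary murine cells of wild-type genotype, taken from mixed glia cultured separately for each region. The other 6 libraries, 3 from each region, came from the same kind of cultures kept in CSF-1 at 20 ng/ml. Every group received a ligand, so no group shows the cells without one. The deposited values are named as those of neonatal microglia, and the exact age of the mice is not stated in the labels. Replicates are said to come from separate cultures.

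IL-34 and CSF-1 are separate cytokines that bind one receptor, the tyrosine kinase encoded by Csf1r, and microglia depend on its signal to survive. In the brain, IL-34 is made mainly by forebrain neurons, while CSF-1 is prominent in the cerebellum and white matter. Microglia of the 2 regions are known to differ in tissue, where cerebellar microglia carry more genes of clearance and of immune alertness. Here both regions received the same ligand at the same dose, so the comparison asks which region differences are seen when the ligand supplied is equal.

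Values are TPM, a measure of transcript abundance, summed over the transcripts of each gene. It gives a transcript's share of the library after correction for its length, so levels of different genes can be compared but the number of reads behind them is unknown. The microglial genes C1qa and Csf1r were abundant in all 6 libraries: C1qa, the first chain of complement C1q, had 2237, 1984 and 2022 TPM in the cerebellar libraries and 1955, 2159 and 2158 in the forebrain ones, and Csf1r was over 1000 TPM in each. Tmem119 and P2ry12, which mark resting microglia in tissue, were lower, Tmem119 at 18.4, 19.9 and 18.3 TPM in cerebellum and P2ry12 at 7.10, 7.76 and 9.81. Patterning genes gave no clear check of the region labels. The forebrain list summed to 1.67 to 2.22 TPM in the cerebellar libraries and 3.96 to 4.95 TPM in the forebrain ones, but its 1 member that passed the filter lay higher in every cerebellar library (log2 fold change 0.25, not called). The cerebellum and hindbrain list overlapped, at 4.71 to 5.90 against 4.24 to 5.62 TPM. En1 and En2, of the midbrain and hindbrain, were at or under 0.161 TPM in each of the 6 libraries and did not separate the regions.

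One property of the libraries moved with the groups. Transcripts under 600 nt held 2.58, 3.31 and 0.947% of all TPM in the cerebellar IL-34 libraries and 0.0269, 0.121 and 0.195% in the forebrain ones. Genes with a mean length under 800 nt had a median log2 fold change of 0.45 (595 genes), against -0.03 at 800 to 1500 nt, -0.04 at 1500 to 3000 nt and 0.00 at 3000 nt or more. Of the genes under 800 nt, 90 were called higher in cerebellum and 11 lower. A second fit therefore used only transcripts of 1000 nt or more, with each library's trends of length and GC content removed, and a gene is said here to be higher or lower only where both fits called it in the same direction. Pf4, a chemokine of platelets and border macrophages whose transcript is 588 nt long, belongs to this short class. It had 131, 109 and 77.9 TPM in the cerebellar libraries and 0, 6.90 and 45.02 in the forebrain ones, and the second fit could not measure it. What part transcript length had in this difference was not tested.

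**Figure D1:**
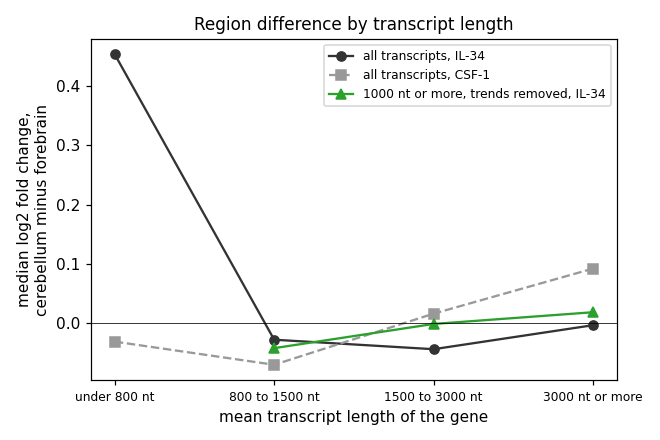
Median log2 fold change, cerebellum minus forebrain, of the genes in 4 classes of transcript length, for the IL-34 and the CSF-1 libraries on the log2(TPM + 1) scale. Under IL-34 the class under 800 nt stands at 0.45, while the 3 longer classes lie between -0.04 and 0.00.

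With all transcripts, 1675 of 12419 genes tested (13.5%) were called by limma at an adjusted p under 0.05, 654 higher (5.27%) and 1021 lower (8.22%) in cerebellum. With longer transcripts it was 2219 of 11486 (19.3%), 931 higher (8.11%) and 1288 lower (11.2%). Both fits called 1014 of the 11215 genes they shared (9.04%) in the same direction, 326 higher in cerebellum (2.91%) and 688 lower (6.13%), and 23 were called in opposite directions. Of the 1014 genes, 1010 separated the 3 and 3 libraries without overlap, and 30 higher and 102 lower genes differed more than 2-fold. No overlap by itself was common: 14.1% of all genes tested lay higher in every cerebellar library than in every forebrain one, and 18.9% lower. The 30 genes named next were picked among those without overlap, so for them it describes the choice and is no further result. Without cerebellar IL-34 libraries 1 and 2, which held the most short transcripts, 164 genes were called in both fits, and 156 of them were among the 1014. Of the 30 genes with the largest differences that are named next, 20 kept their call without those libraries. With the share of TPM under 600 nt as a covariate, 54 genes were called in both fits, and at most 3 members of any list in either direction.

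Forebrain microglia carried more of several genes of scavenging and border-type macrophages. Vsig4, the complement receptor CRIg of tissue macrophages (ENSMUSG00000044206, GRCm38 chromosome X, 96247203 to 96293438, minus strand), had 10.8, 10.4 and 6.95 TPM in the forebrain libraries and 0.419, 0.275 and 0.420 in the cerebellar ones. Its mean was 25.3 times as high in forebrain, and the log2 fold change was -2.901 (SE 0.20, adjusted p = 6.83e-06). F13a1, the A chain of coagulation factor XIII (ENSMUSG00000039109, GRCm38 chromosome 13, 36867178 to 37050244, minus strand), had 27.03, 24.3 and 27.5 TPM in forebrain and 5.01, 4.73 and 6.14 in cerebellum. The 2 regions lay far apart for both genes, with a log2 fold change for F13a1 of -2.12 (SE 0.10, adjusted p = 6.53e-07). Folr2, a folate receptor of tissue macrophages (ENSMUSG00000032725, GRCm38 chromosome 7, 101839988 to 101857194, minus strand), stood at 75.99, 74.8 and 70.6 TPM against 20.6, 20.99 and 23.9, and differed by -1.71 (SE 0.07, adjusted p = 1.45e-07). Libraries within a region differed little for this gene beside the gap between regions.

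The other genes in this group of 15 have diverse roles. Cav1, caveolin-1 of membrane caveolae (ENSMUSG00000007655, GRCm38 chromosome 6, 17306335 to 17341452, plus strand), had 55.5, 54.2 and 52.03 TPM in forebrain and 11.99, 14.4 and 13.3 in cerebellum, a log2 fold change of -1.95 (SE 0.12, adjusted p = 2.66e-06). Igfbp3, which binds insulin-like growth factors in the extracellular space, had 9.93, 9.01 and 10.4 against 1.08, 1.27 and 0.711 TPM. Ctsk, cathepsin K, the collagen-degrading protease of osteoclasts, had 15.8, 15.7 and 15.5 against 3.80, 2.36 and 4.29 TPM. The means of these 3 genes were 4.08, 9.54 and 4.50 times as high in forebrain. Maoa, monoamine oxidase A on the outer mitochondrial membrane, was at 12.3, 11.97 and 12.4 against 2.80, 3.32 and 2.86 TPM. The cyclophilin gene Ppic was 4.69 times as high in forebrain, Dmpk, the kinase of myotonic dystrophy, 3.92 times and the villin-like gene Vill 5.07 times. Slfn4, a schlafen gene of myeloid cells, had 5.16, 5.80 and 4.96 TPM in forebrain and 0.568, 0.484 and 0.562 in cerebellum, but without cerebellar libraries 1 and 2 it was not called (adjusted p = 0.0668). Pilra and Pilrb1, an inhibitory and an activating receptor of myeloid cells that are encoded side by side, differed by -1.81 and -1.703 on the log2 scale. Pilrb1 lost its call without the same 2 libraries (adjusted p = 0.138).

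Pagr1a and Ramp2 complete the 15 and are uncertain. Pagr1a overlaps Pagr1b and Gm42742 on the same strand, and had 32.9, 28.6 and 16.6 TPM in forebrain but at most 0.000222 in 2 cerebellar libraries and 3.67 in the third. Ramp2, a partner of calcitonin-type receptors that overlaps Vps25 on the same strand, had 34.2, 25.4 and 27.3 against 6.16, 3.95 and 13.4 TPM. Reads of genes that overlap may be shared between them, also on opposite strands where the kit does not mark strand. Pilra overlaps Zcwpw1, and Gpc1, named below, overlaps Ankmy1, each on the opposite strand. Without cerebellar libraries 1 and 2, Ramp2 was at -1.05 and not called (adjusted p = 0.14).

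In the other direction, Kcnn4 gave the clearest difference. Kcnn4 encodes KCa3.1, a calcium-activated potassium channel of microglia and T cells (ENSMUSG00000054342, GRCm38 chromosome 7, 24370263 to 24386690, plus strand). It had 69.6, 63.4 and 60.8 TPM in the cerebellar libraries and 17.05, 17.7 and 16.7 in the forebrain ones, 3.77 times as high by the means, with a log2 fold change of 1.85 (SE 0.07, adjusted p = 9.64e-08). Every cerebellar library stood well above every forebrain library. Slc7a11, the cystine importer xCT that feeds glutathione synthesis (ENSMUSG00000027737, GRCm38 chromosome 3, 49892526 to 50443614, minus strand), had 38.3, 34.9 and 37.02 TPM in cerebellum and 15.4, 15.1 and 14.5 in forebrain, a difference of 1.24 (SE 0.07, adjusted p = 1.09e-06). Slco2b1, an organic anion transporter often used to tell microglia from other macrophages, had 17.99, 17.8 and 18.1 against 7.26, 8.24 and 5.58 TPM and differed by 1.25 (SE 0.13, adjusted p = 0.00022). The 3 cerebellar values of Slco2b1 were nearly equal.

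Spint1, an inhibitor of the proteases that activate hepatocyte growth factor, had 9.92, 11.1 and 11.6 TPM in cerebellum and 3.05, 3.16 and 2.35 in forebrain. Sorl1, a sorting receptor that routes the amyloid precursor protein, had 18.2, 20.3 and 21.1 against 7.29, 7.42 and 5.98 TPM. Gpc1, the heparan sulfate proteoglycan glypican-1, had 4.86, 4.95 and 5.52 against 2.19, 1.75 and 1.53 TPM. All 3 were higher in cerebellum, by 1.63, 1.41 and 1.12 on the log2 scale, and by 1.71, 1.49 and 1.21 without cerebellar libraries 1 and 2. Tns1, tensin-1 of focal adhesions, was at 1.55 with all transcripts and 0.55 with longer ones, and it was not called without those 2 libraries (adjusted p = 0.0941). Ccnd2, the gene of cyclin D2, had 7.15, 7.57 and 6.17 against 2.66, 2.99 and 2.01 TPM and lost its call in the same setting (adjusted p = 0.363) and in every fit without 1 of the 6 IL-34 libraries except cerebellar library 3. Pycard, the inflammasome adaptor ASC, had 67.1, 83.6 and 27.98 TPM in cerebellum and 24.5, 23.8 and 24.5 in forebrain, so that library 3 lay close to the forebrain, and its difference was 0.20 without libraries 1 and 2 (adjusted p = 0.377).

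The uncertain cases among the cerebellar genes were Tmem176a, Atrip, Gemin4 and Mrps16. Tmem176a and Tmem176b, neighbours on opposite strands that encode membrane proteins of antigen-presenting cells, had 63.1 ± 8.71 against 28.2 ± 4.02 TPM and 233 ± 23.5 against 117 ± 10.9 TPM (mean ± SD, n = 3). The kit does not mark strand, so reads from the shared end cannot be assigned, and Tmem176a was at 0.98 with an adjusted p of 0.0573 without cerebellar libraries 1 and 2. Atrip overlaps Trex1 and Gemin4 overlaps Glod4, each on the same strand, and Atrip and Gemin4 lost their calls in that setting (adjusted p = 0.121 and 0.403). Mrps16, a mitochondrial ribosomal protein gene, had 25.6, 25.1 and 21.8 TPM in cerebellum and 0, 2.08 and 0 in forebrain, but 0, 8.54 and 19.4 in the cerebellar CSF-1 libraries, and it too lost its call (adjusted p = 0.293).

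**Figure D2:**
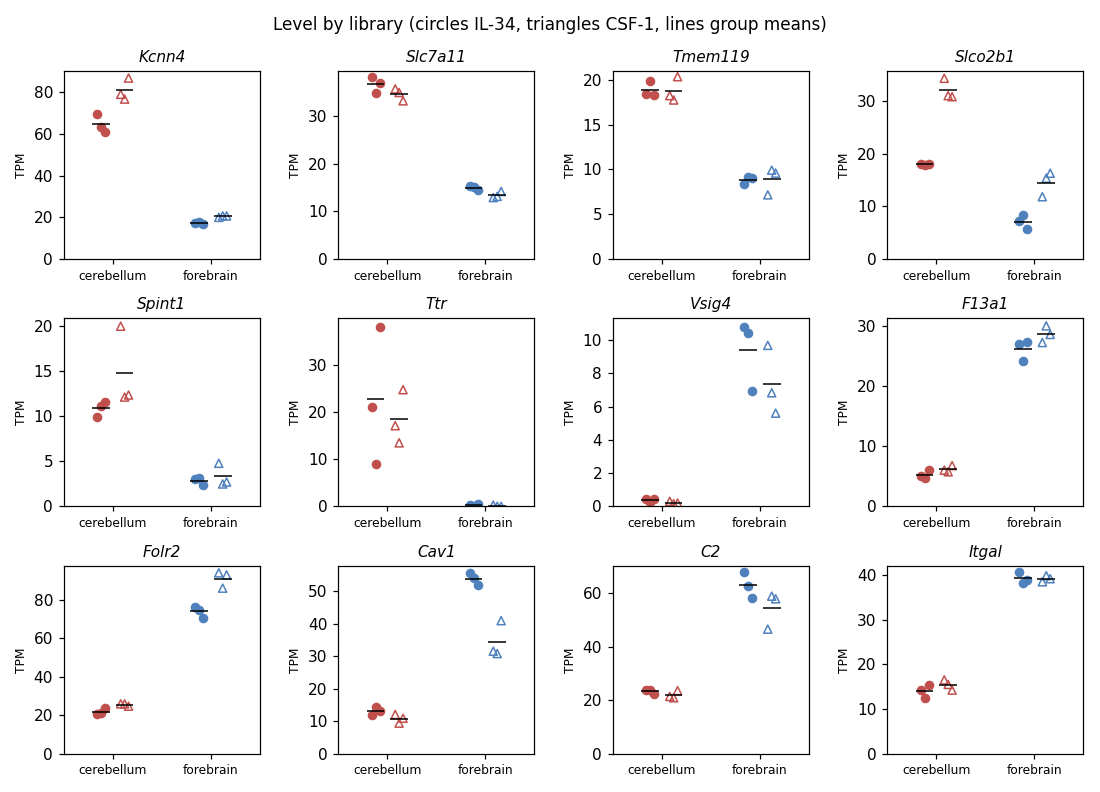
Level in TPM of 12 genes in each of the 12 libraries, with cerebellum in red and forebrain in blue, filled circles for IL-34, open triangles for CSF-1 and lines at the group means. In each panel the cerebellar and forebrain circles do not overlap, as for Kcnn4 (60.8 to 69.6 against 16.7 to 17.7 TPM) and Vsig4 (0.275 to 0.420 against 6.95 to 10.8 TPM). Most of these genes were picked by a rule that asked for this.

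Ttr and Enpp2, transthyretin and autotaxin, are made in quantity by the choroid plexus and had the highest log2 fold changes after Mrps16 among the 15 named genes that were higher in cerebellum. Ttr had 21.02, 8.95 and 37.95 TPM in the cerebellar libraries against 0.240, 0 and 0.570 in the forebrain ones, and Enpp2 had 10.6, 5.11 and 18.98 against 0.427, 0.359 and 0.119. The order of the 3 cerebellar libraries was the same for both genes. Of 14 choroid plexus and ependymal markers 7 were tested, of which Ttr and Enpp2 were higher and Igfbp2 (-0.89) and the ciliary factor Foxj1 (-0.51) were lower in cerebellum. Both higher calls held in all 12 fits without 1 library. The lower ones did not: 1 was left without cerebellar IL-34 library 1 or 3, forebrain IL-34 library 3 or forebrain CSF-1 library 1 or 3, and 0 without cerebellar IL-34 library 2 or forebrain IL-34 library 1 or 2. Their summed level was 23.8 to 74.4 TPM in cerebellum and 18.9 to 24.1 TPM in forebrain. Folr1 and Kl, which define choroid plexus epithelium, were low in both regions: Folr1 had 2.94, 0.395 and 0.892 TPM in cerebellum and 0.590, 0.279 and 0 in forebrain, and Kl was at most 0.378 TPM. In such bulk samples fewer cells of a type and less RNA per cell cannot be told apart, and the part of other cells in these values was not tested.

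Genes that mark border-associated macrophages, the macrophages of meninges and perivascular spaces, were lower in cerebellum more often than not. Of 17 members tested, 9 were lower in both fits and 0 higher, which is 64.3% of the 14 that both fits measured, beside 6.13% of all genes, and the median log2 fold change was -0.43 beside -0.02 over all genes. Folr2 and F13a1 are 2 of the 9. Cd38, an enzyme that consumes NAD, had 5.42, 5.09 and 4.80 TPM in forebrain and 1.33, 1.44 and 1.55 in cerebellum (log2 fold change -1.32, SE 0.12, adjusted p = 9.39e-05), and the inhibitory lectin receptor Clec12a had 225, 209 and 206 against 139.8, 133 and 142 TPM (log2 fold change -0.62, SE 0.06, adjusted p = 0.000167). Siglec1 and Mrc1, the sialic acid receptor CD169 and the mannose receptor CD206, were also lower in cerebellum, at -1.13 and -0.45. Of the members that define these macrophages, Lyve1 was at most 0.313 TPM and Cd163 at most 0.535 TPM in any of the 6 libraries. Ms4a7, another of them, was high in both regions, at 1984, 2067 and 2285 TPM in cerebellum and 1696, 1999.9 and 1962 in forebrain, and was called only with longer transcripts, as higher in cerebellum (log2 fold change 0.16, adjusted p = 0.0324). Pf4, given above, lay higher in every cerebellar library and was not called with all transcripts. Summed over the list, levels were 5952 to 6282 TPM in cerebellum and 6644 to 6697 TPM in forebrain. Without cerebellar libraries 1 and 2, 6 members were lower in both fits.

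Among receptors and bridging molecules of clearance, more were lower than higher in cerebellum. Of 30 tested, 11 were lower and 2 higher in both fits (36.7 and 6.67%, beside 6.13 and 2.91% of all genes), with a median of -0.11. Msr1, scavenger receptor A, had 969, 891 and 953 TPM in forebrain and 575, 616 and 648 in cerebellum (log2 fold change -0.61, SE 0.05, adjusted p = 3.83e-05). Tgm2, a transglutaminase that aids uptake of dead cells, had 42.3, 40.7 and 37.5 against 25.3, 23.8 and 24.9 TPM (log2 fold change -0.68, SE 0.07, adjusted p = 0.000153), and Nr1h3, the oxysterol-sensing nuclear receptor LXR alpha, had 34.7, 39.5 and 36.4 against 20.2, 14.3 and 17.1 (log2 fold change -1.07, SE 0.11, adjusted p = 0.000227). All 3 were lower in every cerebellar library. The scavenger receptor genes Marco and Cd36 were at -0.96 and -0.48, and Mfge8, a bridge to phosphatidylserine, at -0.64. Axl, a receptor kinase of the TAM family, went the other way, with 73.1, 87.04 and 83.2 TPM in cerebellum and 57.1, 53.6 and 55.3 in forebrain (log2 fold change 0.54, SE 0.07, adjusted p = 0.000585), while its ligand gene Gas6 was at -0.22. Cd93 was the other higher member (0.36). Without cerebellar libraries 1 and 2, 5 members were lower and 1 higher, and 1 was higher without cerebellar library 2 or forebrain library 3.

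Complement genes followed the same direction in part. Of 20 tested, 5 were lower and 0 higher in both fits (26.3% of the 19 measured by both, beside 6.13% of all genes), with a median of -0.13. Vsig4, C2, Cfp and Cd55 were among them. C2, a protease of the classical pathway, had 67.9, 62.7 and 58.05 TPM in forebrain and 23.7, 23.9 and 22.3 in cerebellum (log2 fold change -1.39, SE 0.09, adjusted p = 6.83e-06), and Cfp, properdin, had 273, 254 and 268 against 134, 109 and 132 TPM (log2 fold change -1.08, SE 0.07, adjusted p = 4.88e-06). Both had means over 2 times as high in forebrain, at ratios of 2.70 and 2.12. The most abundant members were not called: C1qa was at -0.01 and C1qb, with 2839, 2719 and 2753 TPM in cerebellum, at -0.02, and C3 was at 0.19 (adjusted p = 0.22). Without cerebellar libraries 1 and 2, with transcripts of 2000 nt or more, and in the fits without cerebellar library 1, cerebellar library 2 or forebrain library 1 alone, 3 members were lower.

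Many genes induced by type I interferon were lower in cerebellum. Type I interferons act through a receptor that activates a complex of STAT proteins and IRF9, and this complex binds a short element, the interferon-stimulated response element, near the start of its target genes. Of 47 genes tested, 24 were lower and 0 higher in both fits, with a median of -0.31. That is 54.5% of the 44 that both measured, beside 6.13% of all genes. Ifit2, Ifit3 and Ifit1, of a family that binds foreign RNA, lie together on chromosome 19. Ifit2 (ENSMUSG00000045932, GRCm38 chromosome 19, 34550694 to 34576419, plus strand) had 203, 201 and 208 TPM in forebrain and 110.3, 97.7 and 126 in cerebellum (log2 fold change -0.88, SE 0.10, adjusted p = 0.000266). Ifit3 had 533, 535 and 561 against 398, 337 and 387 TPM (log2 fold change -0.54, SE 0.07, adjusted p = 0.000647), and Ifit1 168, 168 and 182 against 110.04, 109 and 127 TPM (log2 fold change -0.58, SE 0.08, adjusted p = 0.00119). Within each region the 3 libraries were close, and all 3 forebrain libraries exceeded all 3 cerebellar ones for each of these genes. Ifit3 has a near copy, Ifit3b, and reads of the pair may be shared.

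Phf11b, an interferon-induced gene of the PHD finger family (ENSMUSG00000091649, GRCm38 chromosome 14, 59320964 to 59341351, minus strand), had the smallest p of the list, with 127, 131 and 138 TPM in forebrain and 82.5, 71.7 and 79.04 in cerebellum (log2 fold change -0.76, SE 0.06, adjusted p = 3.06e-05). Slfn2, a schlafen gene that maintains immune cell quiescence, stood at 818, 822 and 835 against 603, 641 and 687 TPM (log2 fold change -0.36, SE 0.05, adjusted p = 0.000897). Irf7, the factor that amplifies interferon production, was at 815, 824 and 884 against 602, 481 and 633 TPM, and the chemokine gene Cxcl10 at 25.03, 33.3 and 25.4 against 12.4, 9.23 and 14.02. Each of the 4 was lower in every cerebellar library. Usp18, which brakes the interferon receptor, was lower as well (-0.34). Isg15, a ubiquitin-like modifier with a transcript of 756 nt, was higher in cerebellum with all transcripts (log2 fold change 0.84, SE 0.23, adjusted p = 0.035) and could not be measured in the second fit, and it belongs to the short class that stood high in general. Under the settings tried, the count of lower members was 14 without cerebellar library 2 and 5 without cerebellar libraries 1 and 2.

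Promoters of 3 of these genes are shown because the response element can be read in them. Each runs from 250 bases before to 50 bases after the start of the gene, in the RefSeq annotation of GRCm38.p6, 5′ to 3′ on the gene's own strand, and capitals mark matches to GAAANNGAAA or to its reverse complement TTTCNNTTTC, where N is any base.
Phf11b (chr14:59341281-59341580, minus strand): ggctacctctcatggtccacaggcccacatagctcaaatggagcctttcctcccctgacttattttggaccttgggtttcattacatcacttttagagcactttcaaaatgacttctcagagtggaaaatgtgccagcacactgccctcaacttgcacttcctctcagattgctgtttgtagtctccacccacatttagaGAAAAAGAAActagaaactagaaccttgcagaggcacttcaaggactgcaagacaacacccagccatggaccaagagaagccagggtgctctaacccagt
Ifit3 (chr19:34583279-34583578, plus strand): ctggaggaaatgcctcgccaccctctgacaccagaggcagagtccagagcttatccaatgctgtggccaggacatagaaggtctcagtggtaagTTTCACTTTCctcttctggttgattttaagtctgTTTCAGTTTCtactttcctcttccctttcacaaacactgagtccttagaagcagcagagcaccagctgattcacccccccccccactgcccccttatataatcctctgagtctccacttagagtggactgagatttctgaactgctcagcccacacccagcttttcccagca
Ifit1 (chr19:34640639-34640938, plus strand): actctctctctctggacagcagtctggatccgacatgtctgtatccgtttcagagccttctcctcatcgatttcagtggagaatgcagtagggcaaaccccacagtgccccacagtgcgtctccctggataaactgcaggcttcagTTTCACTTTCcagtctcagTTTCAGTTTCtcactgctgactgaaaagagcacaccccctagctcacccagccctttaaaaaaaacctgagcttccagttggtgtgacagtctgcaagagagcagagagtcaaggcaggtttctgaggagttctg
Phf11b held 1 match and Ifit3 and Ifit1 2 each. Of the list's 47 tested genes, 34 had a window. Of those lower in both fits, 12 of 19 with a window held the motif, and of the other tested members 8 of 15 did, beside 3.44% of all 32851 windows and 3.97% of the 8996 tested genes with a window. The list holds known interferon targets, so the high share describes how it was made. A match is a description of the letters and not evidence of binding.

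**Figure D3:**
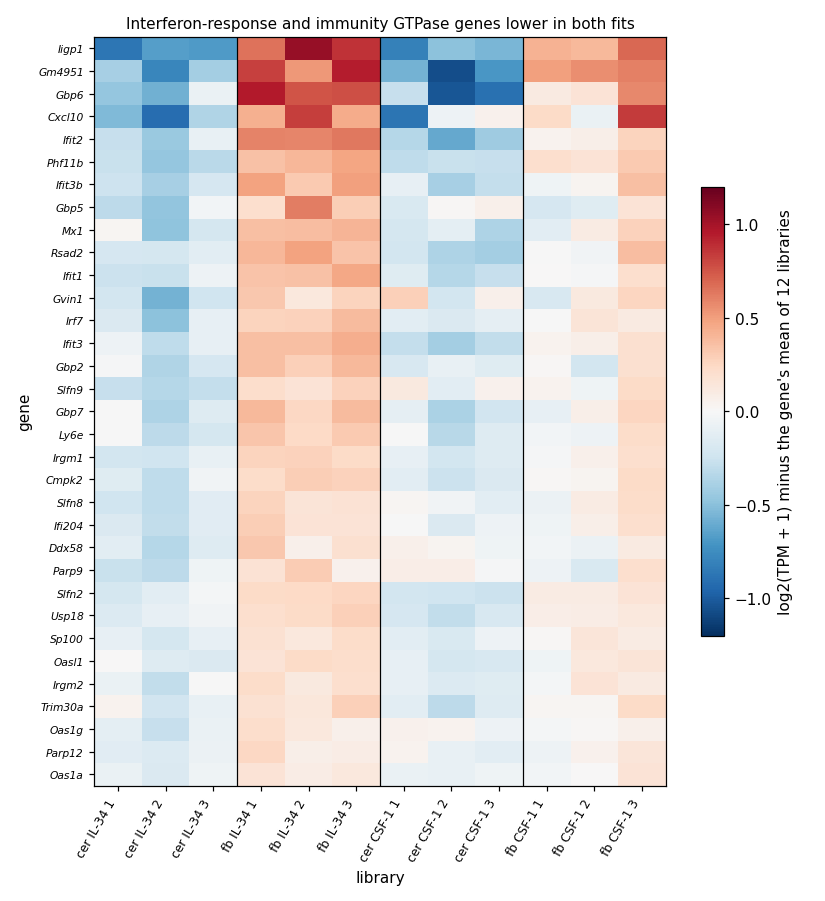
Heat map of 33 interferon-induced and GTPase genes called lower in cerebellum in both fits, in the 12 libraries, as log2(TPM + 1) minus the gene's mean over all libraries, with colours limited to ±1.2. Genes were chosen for this difference, so the IL-34 columns describe it, with Ifit2 at 97.7 to 126 TPM in cerebellum and 201 to 208 TPM in forebrain.

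The GTPase genes of cell-autonomous immunity, which are induced mainly by interferon gamma, were also lower in many cases. Of 15 tested, 9 were lower and 0 higher in both fits (64.3% of 14, beside 6.13% of all genes), with a median of -0.52. Irgm1, which guards vacuoles that hold pathogens, had 192, 193 and 186 TPM in forebrain and 136, 135 and 149.5 in cerebellum (log2 fold change -0.44, SE 0.06, adjusted p = 0.00154). Iigp1 had 2.71, 3.88 and 3.31 against 0.297, 0.492 and 0.472 TPM (log2 fold change -1.59, SE 0.16, adjusted p = 0.000167), and the guanylate binding protein gene Gbp6 had 11.8, 10.2 and 10.3 against 3.77, 3.42 and 5.25 (log2 fold change -1.205, SE 0.21, adjusted p = 0.00399). The regions did not overlap for these 3 genes, of which 1, Iigp1, was low throughout. Gm4951, another immunity-related GTPase gene, was at -1.29. The family is large and its members are similar, so reads may be shared between them. The count was 4 without cerebellar library 2, 5 without forebrain library 3 and 2 without cerebellar libraries 1 and 2.

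Several genes of mitosis were lower in cerebellum, and those of DNA replication were mostly not called. In the G2/M list 14 of 44 tested were lower and 0 higher in both fits (33.3% of 42, beside 6.13% of all genes). Of the 44, 43 had a negative log2 fold change, with a median of -0.46. Ccna2, cyclin A2, had 7.02, 6.48 and 7.48 TPM in forebrain and 3.30, 3.43 and 2.75 in cerebellum (log2 fold change -0.94, SE 0.11, adjusted p = 0.000305). Top2a, topoisomerase II alpha, had 10.6, 9.43 and 8.05 against 5.33, 5.51 and 4.42 TPM (log2 fold change -0.76, SE 0.14, adjusted p = 0.00461), and Ccnb2, cyclin B2, 5.78, 4.55 and 5.15 against 2.26, 3.04 and 2.62 (log2 fold change -0.76, SE 0.14, adjusted p = 0.00551). These are low levels, and no library of 1 region reached the other. Nusap1, of the mitotic spindle, was at -0.82. In the G1/S list 2 of 41 were higher and 1 lower, with a median of -0.09. That is 4.88 and 2.44%, beside 2.91 and 6.13% of all genes, so the list as a whole did not stand out. Ccnd2 and the licensing factor gene Cdt1 (0.23) were the higher members, and Rrm2, of ribonucleotide reductase, was the lower one (-0.62). The count of 2 higher G1/S genes held in none of the 12 fits without 1 library, which gave 0 or 1. The lower one was lost without cerebellar IL-34 library 1 or 2 or forebrain IL-34 library 1 or 3. With a filter of 5 TPM in 3 libraries 7 G2/M genes were lower, without a filter or without cerebellar library 1, forebrain library 1 or forebrain library 3 it was 9, and without cerebellar libraries 1 and 2 it was 1.

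Glycolytic and hypoxia-responsive genes leaned lower in cerebellum. Of 29 tested, 8 were lower and 0 higher in both fits (28.6% of 28, beside 6.13% of all genes), with a median of -0.20. Slc16a3, the lactate exporter MCT4, had 71.3, 64.5 and 65.6 TPM in forebrain and 45.6, 42.97 and 50.04 in cerebellum (log2 fold change -0.53, SE 0.07, adjusted p = 0.0013), and Ldha, lactate dehydrogenase A, had 931, 892 and 836 against 710.1, 668 and 697 (log2 fold change -0.36, SE 0.06, adjusted p = 0.00465). Aldoc, an aldolase that is also an astrocyte marker, had 8.70, 10.1 and 9.92 against 3.70, 2.76 and 3.50 TPM (log2 fold change -1.29, SE 0.16, adjusted p = 0.000526). All 3 were without overlap between regions. Pgk1 was called only with all transcripts (-0.598). The count of lower members fell to 5 with no filter, with transcripts of 2000 nt or more or without cerebellar library 3, to 4 in the fits on the 6 libraries alone, without cerebellar library 2, or without forebrain library 1 or 2, and to 1 without cerebellar libraries 1 and 2.

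Several genes of cholesterol and fatty acid synthesis, which the factor SREBP switches on when sterol is short, were higher in cerebellum. Of 30 tested, 7 were higher and 0 lower in both fits (23.3%, beside 2.91% of all genes), with a median of 0.23. Scd2, a fatty acid desaturase (ENSMUSG00000025203, GRCm38 chromosome 19, 44293674 to 44306864, plus strand), had 26.1, 28.2 and 29.1 TPM in cerebellum and 17.3, 15.1 and 13.7 in forebrain (log2 fold change 0.82, SE 0.10, adjusted p = 0.000449), and Lss, lanosterol synthase, had 29.4, 28.04 and 34.01 against 20.7, 18.6 and 18.7 (log2 fold change 0.63, SE 0.09, adjusted p = 0.00182). Each separated the regions, by less than 2-fold. Sc5d (0.397), Fasn (0.51), Sqle (0.27) and Fads1 (0.27) are also among the 7. Limma with library weights called 11 members higher, and the fit without cerebellar libraries 1 and 2 called 3.

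Target genes of NRF2, the factor of the oxidative stress response, and genes of glutathione synthesis were higher in 6 cases and lower in 1 of 26 tested in both fits. That is 24 and 4% of 25, beside 2.91 and 6.13% of all genes, with a median of 0.05. Beside Slc7a11, the members were Gclm and Gclc, the subunits of the enzyme that starts glutathione synthesis (0.21 and 0.29), the autophagy receptor gene Sqstm1 (0.31), the sulfiredoxin gene Srxn1 (0.24) and the catalase gene Cat (0.19). Gclm had 638, 672 and 665 TPM in cerebellum and 574, 583 and 554 in forebrain, and Sqstm1 1732, 1679 and 1690.1 against 1398, 1416 and 1292. The differences were small but without overlap in both genes. Hmox1, heme oxygenase 1, was the lower member, with 1679, 1545 and 1462 TPM in cerebellum and 1911, 1918 and 1779.8 in forebrain (log2 fold change -0.26, SE 0.07, adjusted p = 0.0253). The count of higher members was 3 in the fits on the 6 libraries alone, without cerebellar library 2 or without forebrain library 3, and 1 without cerebellar libraries 1 and 2. The lower call was lost without cerebellar library 2 or forebrain library 1 or 2.

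Among genes of MHC class II presentation, Cd74, H2-Ab1 and H2-DMb1 were higher in cerebellum and 0 of 14 tested were lower in both fits (23.1% higher of 13, beside 2.91% of all genes), with a median of 0.15. Without cerebellar library 1, cerebellar library 2 or forebrain library 3 only 1 was higher, and without cerebellar libraries 1 and 2 it was 0. Cd74, the invariant chain, had 54.7 ± 2.18 TPM in cerebellum and 41.9 ± 3.69 in forebrain, and H2-Ab1 had 7.05, 7.62 and 6.85 against 4.50, 5.32 and 3.08 (log2 fold change 0.65, SE 0.16, adjusted p = 0.0247). Cd74 exceeded H2-Ab1 several times over in every library. Ifi30 and Ctss, a thiol reductase and a protease of the same route, were the members with the smallest p after Cd74 and were lower in cerebellum with all transcripts (-0.32 and -0.19), but not called in both fits. For MHC class I, 5 of 23 tested were lower and 1 higher in both fits (23.8 and 4.76% of 21, beside 6.13 and 2.91% of all genes). Without cerebellar library 2 or forebrain library 2 it was 3 lower, and without cerebellar library 1 or forebrain library 2 or 3 it was 0 higher. Pdia3 and Calr, chaperones of peptide loading, were at -0.33 and -0.41, H2-T22 was at -0.41, and the peptide transporter gene Tap2, the higher one, was at 0.24.

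**Figure D4:**
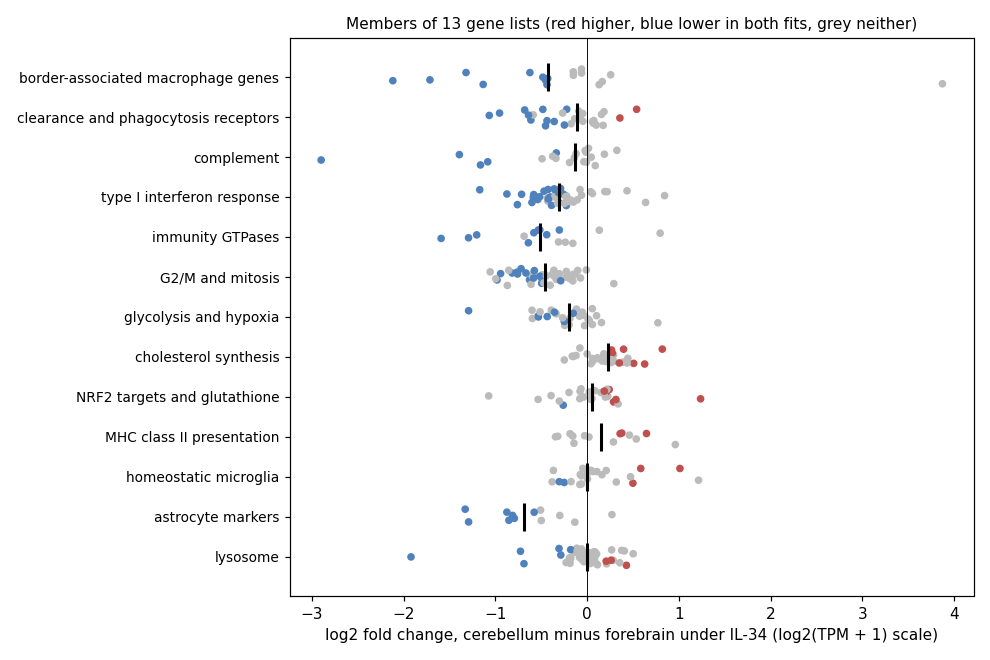
Log2 fold change, cerebellum minus forebrain under IL-34, on the log2(TPM + 1) scale, of each tested member of 13 gene lists, with members called higher in both fits in red, lower in blue and the rest in grey, and a black bar at the list's median. Medians range from -0.69 for astrocyte markers to 0.23 for cholesterol synthesis, and the grey point far to the right in the border-associated macrophage list is Pf4, whose transcript is short.

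Homeostatic microglial genes did not move one way. Of 23 tested, 3 were higher and 2 lower in both fits (14.3 and 9.52% of 21, beside 2.91 and 6.13% of all genes), with a median of 0.00. The lower count was 0 or 1 in each fit without 1 of the 6 IL-34 libraries. Tmem119, a membrane protein that marks microglia among brain macrophages (ENSMUSG00000054675, GRCm38 chromosome 5, 113793729 to 113800516, minus strand), had 18.4, 19.9 and 18.3 TPM in cerebellum and 8.35, 9.15 and 9.08 in forebrain, 2.13 times as high by the means (log2 fold change 1.01, SE 0.11, adjusted p = 0.000256). Entpd1, the ectonucleotidase CD39 that breaks down extracellular ATP, was also higher (25.5, 27.7 and 34.5 against 18.2, 20.3 and 18.7 TPM), and so was the transcription factor gene Mef2c (0.499). P2ry6, a UDP receptor linked to phagocytosis, and Rhob were lower (-0.25 and -0.304). P2ry12 lay at 7.10, 7.76 and 9.81 TPM in cerebellum and 10.9, 11.7 and 10.2 in forebrain. It was not called with all transcripts (log2 fold change -0.38, SE 0.12, adjusted p = 0.0653) but was with longer ones (log2 fold change -0.27, adjusted p = 0.0346). Cx3cr1, the fractalkine receptor gene, was at -0.08 (adjusted p = 0.703). Cst3 was called higher with all transcripts (0.47), but at 848 nt it could not be measured with longer ones.

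Of 20 transcription factors of the myeloid lineage, 4 were higher and 5 lower in both fits (20 and 25%, beside 2.91 and 6.13% of all genes). In the fits without 1 library 4 to 6 were lower, while 2 were higher without cerebellar library 1 or forebrain library 3 and 1 without cerebellar library 2. Id2, an inhibitor of helix-loop-helix factors, had 216, 229.8 and 237 TPM in cerebellum and 303, 323 and 320.03 in forebrain (log2 fold change -0.47, SE 0.05, adjusted p = 0.000208), and Klf2, of quiescent leukocytes, had 43.6, 44.1 and 44.7 against 64.5, 62.1 and 58.4 (log2 fold change -0.47, SE 0.07, adjusted p = 0.00246). Maf, of tissue macrophages, was lower as well (-0.43), as were Nr1h3 and Bhlhe41. Egr2 (0.71), Mitf, which drives lysosomal genes (0.405), Bhlhe40 (0.28) and Sall3 were higher. Spi1, encoding PU.1, the factor that sets myeloid identity, had 373, 349.9 and 359.8 TPM in cerebellum and 358, 348 and 341 in forebrain and was not called (log2 fold change 0.05, SE 0.05, adjusted p = 0.545). Sall1, which maintains microglial identity, was at 0.16 (adjusted p = 0.39).

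Microglia need TGF-beta signalling for their identity. Genes of TGF-beta and BMP signalling, pathway parts and targets together, included 6 lower and 0 higher of 27 tested in both fits (23.1% lower of 26, beside 6.13% of all genes). With transcripts of 2000 nt or more 3 were lower. Id1 had 29.5, 30.3 and 31.99 TPM in cerebellum and 47.7, 51.9 and 52.2 in forebrain (log2 fold change -0.71), and Id3 had 70.6, 65.2 and 60.7 against 92.9, 91.5 and 83.03 (-0.44). Smad6, which inhibits BMP signalling, had 8.88, 8.73 and 7.09 against 14.2, 13.8 and 13.7 TPM (log2 fold change -0.696, SE 0.10, adjusted p = 0.00184). With Id2, these 3 genes are classical BMP targets, and each was lower in all 3 cerebellar libraries. The receptor gene Bmpr1a (-0.45) and Tgfbi (-0.37) complete the 6, and the list's median was -0.08.

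The receptor of the ligand itself differed little. Csf1r had 1218, 1148 and 1198 TPM in cerebellum and 1331, 1202 and 1189 in forebrain and overlapped between regions (log2 fold change -0.06, SE 0.06, adjusted p = 0.508). With longer transcripts it was called lower in cerebellum by a small margin (log2 fold change -0.09, adjusted p = 0.0312). Sdc1, syndecan-1, a reported partner of IL-34, had 12.1, 8.94 and 9.91 against 12.7, 12.97 and 11.7 TPM and was called only with longer transcripts (log2 fold change -0.46, adjusted p = 0.00318). Ptprz1, a phosphatase that also binds IL-34, was under the level for testing with all transcripts, at 0.204, 0.251 and 0.146 TPM in cerebellum and 0.729, 0.904 and 0.509 in forebrain, and was lower in cerebellum with longer ones (log2 fold change -0.55, adjusted p = 0.0177). Il34 was at most 0.137 TPM in any of the 6 libraries, and Csf1 was at 8.92, 15.9 and 11.5 against 10.9, 13.8 and 14.1 TPM with no call (log2 fold change -0.12, SE 0.17, adjusted p = 0.674). Of 25 genes of the receptor system tested, Csf3r, the receptor of G-CSF (68.5, 66.6 and 67.6 against 45.03, 47.6 and 44.4 TPM, log2 fold change 0.55, SE 0.06, adjusted p = 0.000256), and the adaptor gene Dok3 (0.24) were higher and the adaptor gene Dok2 (-0.201) was lower in both fits. That is 8.33 and 4.17% of 24, beside 2.91 and 6.13% of all genes. In each fit without 1 of the 6 IL-34 libraries except cerebellar library 3, 1 was higher, and the lower call was lost without cerebellar library 1 or 2 or forebrain library 1. Trem2, which pairs with TYROBP to sense lipids, had 932, 878 and 854 TPM in cerebellum and 784, 873 and 832 in forebrain and was not called (log2 fold change 0.098, SE 0.05, adjusted p = 0.205).

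Genes raised in disease-associated microglia were higher in 6 and lower in 4 of 34 cases in both fits, with a median of 0.11. That is 20 and 13.3% of 30, beside 2.91 and 6.13% of all genes. Without cerebellar library 1 or forebrain library 1 or 3 it was 2 lower. Spp1, osteopontin, which alone made up more than 1 percent of each library, had 21953, 26033 and 25121 TPM in cerebellum and 16747, 17061 and 16803 in forebrain (log2 fold change 0.53, SE 0.07, adjusted p = 0.000886). Lpl, lipoprotein lipase, had 3887, 3503 and 3434 against 3026, 2609.8 and 2518 (log2 fold change 0.41, SE 0.08, adjusted p = 0.00551). Both were higher in every cerebellar library. Ch25h, which makes 25-hydroxycholesterol, had 61.9, 50.7 and 61.7 TPM in cerebellum and 135, 129.9 and 133 in forebrain (log2 fold change -1.18, SE 0.09, adjusted p = 1.92e-05), and Cybb, the catalytic subunit of the phagocyte oxidase, had 343, 321 and 356 against 531, 474 and 490.5 (log2 fold change -0.55, SE 0.06, adjusted p = 0.000374). These 2 were lower without overlap. Apoe, the most abundant of these, had 43077, 41133 and 43672 against 39007, 38638 and 36891 TPM, not called with all transcripts (log2 fold change 0.16, SE 0.07, adjusted p = 0.168) and called higher with longer ones (log2 fold change 0.46, adjusted p = 3e-06). The lysosome list, of 53 tested, held 3 higher and 6 lower members (5.66 and 11.3%, beside 2.91 and 6.13% of all genes) with a median of 0.00. Without cerebellar library 2 it was 1 higher. Beside Ctsk, Ctsc, the protease that activates granzymes, was lower, with 720.3, 788 and 878 TPM in cerebellum and 1324, 1258 and 1358 in forebrain (log2 fold change -0.73, SE 0.06, adjusted p = 4.88e-05).

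Inflammatory genes were lower in 8 and higher in 2 of 34 cases in both fits (24.2 and 6.06% of 33, beside 6.13 and 2.91% of all genes), with a median of -0.22. Without cerebellar library 2 or forebrain library 3, 5 were lower and 1 higher, and without cerebellar libraries 1 and 2, 1 was lower. Lcn2, the iron-siderophore binding lipocalin, had 27.8, 26.9 and 24.2 TPM in forebrain and 7.38, 8.17 and 7.67 in cerebellum (log2 fold change -1.64, SE 0.10, adjusted p = 2.48e-06), and Tlr2, a receptor of bacterial lipoproteins, had 193, 197 and 192 against 146, 123 and 139.8 (log2 fold change -0.51, SE 0.08, adjusted p = 0.00218). Ptgs2, the inducible prostaglandin synthase, was the opposite, with 16.99, 16.6 and 18.6 TPM in cerebellum and 11.6, 10.9 and 11.7 in forebrain (log2 fold change 0.57, SE 0.08, adjusted p = 0.00108). All 3 separated the libraries. Among chemokines 4 of 21 were lower and 1 higher in both fits (28.6 and 7.14% of 14), but the list did not lean one way. Its median was 0.20 with all transcripts and -0.06 with longer ones, and 12 of the 21 had a positive log2 fold change. Summed levels were 1325 to 1604 TPM in cerebellum and 1172 to 1359 TPM in forebrain. Without cerebellar library 2 or forebrain library 2, 2 were lower, and the higher call was lost in 7 of the 12 fits without 1 library. Ccl2, which recruits monocytes, had 35.8, 37.1 and 44.2 TPM in forebrain and 19.5, 18.04 and 16.1 in cerebellum (log2 fold change -1.09, SE 0.11, adjusted p = 0.000121), and Cxcl9 was at -0.81, while Ccl7, with a transcript of 801 nt, was lower with all transcripts (log2 fold change -0.95, SE 0.17, adjusted p = 0.0047). The formyl peptide receptor genes Fpr1 (-1.37) and Fpr2 (-1.36) and Ccr3 (-0.45) were lower among 16 chemoattractant receptors (18.8%, beside 6.13% of all genes). None was higher, beside 2.91% of all genes. Itgal, the LFA-1 integrin chain, had 40.6, 38.2 and 38.8 TPM in forebrain and 14.2, 12.6 and 15.4 in cerebellum (log2 fold change -1.42, SE 0.08, adjusted p = 1.74e-06), and Mmp9, gelatinase B, was at -1.25.

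Transcripts of other cells moved with the regions as well. Of 20 astrocyte markers 12 were tested, of which 7 were lower and 0 higher in cerebellum in both fits, with a median of -0.69. That is 63.6% of the 11 that both fits measured, beside 6.13% of all genes. Without cerebellar library 1 it was 4, and with a filter of 5 TPM, or without cerebellar libraries 1 and 2, it was 3. Their summed level was 22.2 to 24.8 TPM in the cerebellar libraries and 47.4 to 50.6 TPM in the forebrain ones, beside 1188 ± 36.5 against 1241 ± 78.6 TPM for Csf1r (mean ± SD, n = 3). Gfap had 3.01, 3.62 and 3.42 TPM in cerebellum and 7.30, 7.56 and 5.79 in forebrain (log2 fold change -0.85, SE 0.16, adjusted p = 0.00643), and Clu, clusterin, 4.77, 3.19 and 4.15 against 9.06, 13.9 and 12.2 (log2 fold change -1.33, SE 0.18, adjusted p = 0.000946). Aqp4 (log2 fold change -0.51, SE 0.16, adjusted p = 0.0597) and Slc1a3 (log2 fold change -0.298, SE 0.21, adjusted p = 0.372) were not called, and Slc1a2 was at most 0.239 TPM. Of 7 oligodendrocyte lineage markers tested, 3 were higher and 1 lower in both fits (42.9 and 14.3%, beside 2.91 and 6.13% of all genes). Mbp and Mobp, of myelin, were higher in cerebellum (0.602 and 1.196) and Olig1 was lower (-0.898). Mbp is also transcribed in blood cells from the golli part of its locus, and had 62.03, 57.4 and 62.3 against 41.6, 39.9 and 37.2 TPM. Acta2 and Tagln, of contractile mural cells, were lower in cerebellum (-1.54 and -1.16). Of 7 fibroblast and mural markers tested, 2 were lower and 0 higher in both fits (28.6% lower, beside 6.13% of all genes). The summed level of the 21 listed was 83.2 to 90.8 against 88.4 to 104.8 TPM. Endothelial markers summed to 137 to 150 against 170 to 183 TPM, with 1 of 5 tested lower and 0 higher in both fits. Most of them did not follow the sum: 3 of the 5 had a positive log2 fold change, and the median was 0.17. Bergmann glia markers summed to 28.5 to 51.8 against 22.1 to 29.9 TPM, with 0 of 4 tested called in both fits. Neuron markers summed to at most 4.78 TPM in any of the 6 libraries and markers of other leukocytes to at most 3.42 TPM. What part such cells had in the other region differences was not tested.

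The CSF-1 libraries allow the same regions to be compared in other libraries. Both comparisons came from the same fit of all 12 libraries, so they share its estimate of the spread. Under CSF-1, 833 of 12419 genes (6.71%) were called with all transcripts, 408 higher (3.29%) and 425 lower (3.42%) in cerebellum. A fit on the 6 CSF-1 libraries alone called 507. Of the 1014 genes called in both fits under IL-34, 957 (94.4%) had the same sign under CSF-1, 447 (44.1%) were called there in the same direction and 2 in the opposite one. Across the 11486 genes of the longer-transcript fit, the 2 sets of region differences had Pearson's r = 0.609, and with all transcripts r was 0.379, as a description across genes that are not independent replicates. Kcnn4 was at 1.94 (adjusted p = 1.19e-07) under CSF-1 and Slc7a11 at 1.31 (adjusted p = 1.48e-06), beside 1.85 and 1.24 under IL-34. Vsig4 was at -2.75 (adjusted p = 2.23e-05), F13a1 at -2.05 (adjusted p = 1.48e-06) and Folr2 at -1.79 (adjusted p = 1.34e-07). For these 5 genes each region difference was close to that under IL-34.

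Counts of members called differed between the ligands for some lists. Here the calls of the fit with all transcripts alone are set side by side. Calls over all genes differed too: 3.42% were lower under CSF-1 and 8.22% under IL-34, and 3.29 and 5.27% were higher. Of the 47 interferon genes tested 8 were lower under CSF-1 and 26 under IL-34, with a CSF-1 median of -0.15. Of the 15 GTPase genes it was 4 and 10, with a median of -0.24, and of the 29 glycolysis genes 3 and 10, with a median of -0.09. The G2/M list had 17 of 44 lower under each ligand, with medians of -0.58 under CSF-1 and -0.46 under IL-34. Of the 30 cholesterol genes 12 were higher under CSF-1 and 7 under IL-34. The interaction, which tests whether the region difference depends on the ligand, called 0 members of any of these 5 lists. Over all genes it called 18 of 12419 with all transcripts (0.145%) and 0 of 11486 with longer ones, where 1378 had an unadjusted p under 0.05. Siglec1 is an example: it was at -1.13 (SE 0.15, adjusted p = 0.000943) under IL-34 and at -0.53 (adjusted p = 0.0597) under CSF-1, and its difference between the ligands did not pass (limma adjusted p = 0.328). Slfn4 was at -2.03 and -0.64, and Ramp2 at -1.897 and -0.19, with no call of the interaction for either (adjusted p = 0.287 and 0.263). A miss of the threshold does not show that these differences were equal under both ligands.

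**Figure D5:**
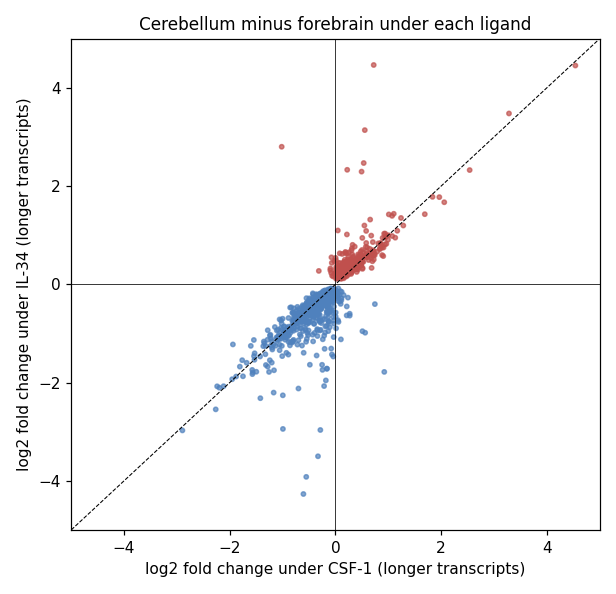
Region difference under IL-34 (vertical axis) against that under CSF-1 (horizontal axis), both as log2 fold change of cerebellum minus forebrain in the longer-transcript fit, for the 1014 genes called in both fits under IL-34, with a dashed line of equality. Most points lie in the quadrants of equal sign, and since the genes were chosen by the vertical value, the spread along it describes that choice.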

How the data were processed

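RNA of 12 libraries was made into cDNA with SMART-Seq v4 chemistry, per the labels' protocols, whose extraction text speaks of human tissue while every other label is mouse. The authors deposited TPM per Ensembl transcript, made with kallisto 0.43.0 on GRCm38, per the submitters' processing notes. Each library sums to 1000000, so depth is unknown, and p-values measure the spread between these libraries.

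TPM of 115879 transcripts was summed over 46262 gene identifiers, and lengths and positions came from GENCODE M21 (98.6% of transcripts matched). log2(TPM + 1) was fitted with limma 3.58.1 in R 4.3.3 as 4 group means with a variance trend, on genes of at least 1 TPM in at least 3 of 12 libraries. Tests were two-sided, with Benjamini-Hochberg adjustment over all genes tested. A pseudocount of 1 understates the change of low genes. The second fit used transcripts of 1000 nt or more, rescaled to 1000000, less lowess trends (span 0.3) of length and GC content. None of the 66 library pairs held identical values.

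The comparison and the gene lists were chosen with earlier results of these data known. Genes named are the 15 highest and 15 lowest among those called in both fits without overlap, at 5 TPM or more in the higher group and not predicted genes, up to 4 members of each list with the smallest p, and 8 genes of the receptor system and microglial identity. Other genes named were chosen after their values were seen. Alternatives covered pseudocount, filter, scaling, weights, a replicate block, length limits, the share of short transcripts as a covariate and libraries left out. Some list members that entered the counts are not reported here by name.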

Additional observations from a re-analysis of the deposited data

Results flagged for a closer look

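The region difference depended on the ligand in 18 of 12419 genes by the interaction test with all transcripts (limma, adjusted p under 0.05), 15 with a more positive and 3 with a more negative cerebellar difference under IL-34. Of the 18, 12 were listed at 0 in the 9 libraries outside the cerebellar IL-34 group and had mean transcript lengths of at most 648 nt, among them the copper chaperone gene Atox1 (275, 248 and 162 TPM in the cerebellar IL-34 libraries), the metallothionein genes Mt1 and Mt2 and the cytochrome c oxidase gene Cox8a. The other 6 were Focad, Plekhm2, Mrps5, Nup98, Gm6916 and A230004M16Rik. Focad, which encodes focadhesin, had 19.9, 14.3 and 13.3 TPM in the cerebellar IL-34 libraries and 4.94, 4.99 and 5.41 in the forebrain ones. Nup98, a nuclear pore gene, had 33.2, 31.8 and 33.96 TPM in cerebellum and 39.03, 35.1 and 37.6 in forebrain under IL-34. Under CSF-1 it had 53.5, 48.5 and 49.4 in cerebellum and 38.3, 36.9 and 37.5 in forebrain. With longer transcripts 0 of the 18 were called. That fit leaves out transcripts under 1000 nt, and of the 595 genes with a mean length under 800 nt it held 9. It could therefore test few if any of the 12 short genes, and its count of 0 says nothing about genes it could not measure. A230004M16Rik was the 1 among the 18 that both fits called under IL-34.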

How the results depend on the processing

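The region difference under IL-34 (1675 genes with all transcripts, 2219 with longer ones, 1014 in both) stayed within 1.5 times its count under pseudocounts of 0.1 and 5, a filter of 5 TPM or none, both scalings, library weights, a limit of 2000 nt and the 6 libraries alone. Median-of-ratios scaling called 2029 genes, 47.9% higher against 39.0%. With the share of TPM under 600 nt as a covariate 76, 265 and 54 genes were called. That share separates the 2 groups compared, so that it and the region cannot be told apart. Without cerebellar IL-34 libraries 1 and 2 the counts were 196, 813 and 164, and a lone cerebellar library is then assumed to vary like the other groups. Transcripts of 1000 nt or more without trend removal gave 2598 genes. Leaving out 1 library gave 814 to 1735, 1453 to 2199 and 562 to 991 genes, lowest without cerebellar IL-34 library 2. The count with all transcripts was 1004 without cerebellar IL-34 library 1, and 1076 and 1056 without forebrain IL-34 libraries 2 and 3, where both fits called 666 and 664.

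For CSF-1 (833 genes), 1000 nt or more gave 1989 without and 1804 with trend removal, 2000 nt or more 1432, the 6 libraries alone 507, and leaving out 1 library 414 to 914, with the 4 lowest counts without cerebellar CSF-1 library 1 or 2 or forebrain CSF-1 library 1 or 3. The interaction (18 genes) gave 10 with the covariate, 1 and 0 with 1000 nt or more without and with trend removal, 0 with 2000 nt or more, 0 without cerebellar IL-34 libraries 1 and 2, and 0 to 110 without 1 library: 0 without cerebellar IL-34 library 1 or 2, 29 without cerebellar CSF-1 library 3 and 110 without cerebellar IL-34 library 3. With longer transcripts (0 genes) it gave 1 at a pseudocount of 5, 1 with the covariate, 2 without cerebellar libraries 1 and 2, and 0 to 58 without 1 library, the highest without cerebellar IL-34 library 3. Interaction counts with a length limit hardly test the 12 short genes among the 18, as the limit leaves out short transcripts. Replicate numbers did not pair the libraries (r = -0.030, 0.001 and -0.034 for same-numbered cerebellar and forebrain IL-34 libraries), and with the replicate block 1438, 2037 and 859 genes were called. Directions changed for Tmem176a at 2000 nt or more (-0.68), for Pycard with the covariate (-0.22), for Trem2 at 2000 nt or more (-0.36, adjusted p = 0.0128), for Csf1r at 1000 nt or more without trend removal (0.0031), and for Csf1 in that setting (0.051) and without 1 library (-0.32 to 0.065). The cause was not tested.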

Other observations

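Of 19 immediate early genes, which respond to receptor signals within minutes, 5 were higher and 1 lower in cerebellum in both fits (26.3 and 5.26%, beside 2.91 and 6.13% of all genes). Without cerebellar IL-34 library 2 it was 2 higher, without cerebellar IL-34 library 1 or forebrain IL-34 library 2 or 3 it was 3, and without cerebellar IL-34 libraries 1 and 2 it was 0. Egr1 had 62.6, 92.7 and 65.8 TPM in cerebellum and 43.5, 49.3 and 43.3 in forebrain (log2 fold change 0.67, SE 0.13, adjusted p = 0.0066), and Maff was at 0.62. Cyr61, a matricellular gene, was the lower one (-1.48). Of 22 targets of the ERK pathway, Egr1 and Phlda1 (0.45) were higher and the phosphatase gene Dusp4 (-0.29) and Hmga2 (-0.45) were lower. That is 9.52% of 21 each way, beside 2.91 and 6.13% of all genes. Each fit without 1 of the 6 IL-34 libraries lost at least 1 of these 4 calls. ER chaperones were lower in 6 of 21 cases and higher in 1 in both fits (30 and 5% of 20, beside 6.13 and 2.91% of all genes). The 12 fits without 1 library gave 3 to 5 lower, and it was 3 without cerebellar library 1 or 2 or forebrain library 1 or 3. Pdia3 was among the lower members. Trib3, a pseudokinase of the amino acid response, went the other way and was higher in cerebellum (63.7, 58.9 and 61.2 against 46.7, 42.9 and 44.9 TPM, log2 fold change 0.44, SE 0.07, adjusted p = 0.00295). Of 17 heat shock and dissociation stress genes 0 were called in both fits, and Dnaja1 was the 1 lower with all transcripts (-0.25).

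Among growth factors, Hbegf, a ligand of the EGF receptor, had 3.92, 6.68 and 4.36 TPM in forebrain and 1.84, 1.62 and 1.11 in cerebellum (log2 fold change -1.23, SE 0.18, adjusted p = 0.00177). Pdgfc (-0.49) and Gas6 were also lower of 18 tested (16.7%, beside 6.13% of all genes), with 1 lower without cerebellar library 3 or forebrain library 2. Adora2b, an adenosine receptor, was lower in cerebellum (8.84, 6.996 and 8.28 against 13.5, 16.6 and 14.3 TPM, log2 fold change -0.81, SE 0.12, adjusted p = 0.00207). With it, 2 other purinergic genes were lower and 1 higher of 16 (18.8 and 6.25%, beside 6.13 and 2.91% of all genes), with 1 lower in each fit without 1 forebrain IL-34 library. Of 18 iron genes 4 were lower in both fits (25% of 16, beside 6.13% of all genes), among them the transferrin receptor gene Tfrc (-0.44), and 0 higher. It was 2 lower without cerebellar library 3 or forebrain library 2 and 1 without cerebellar library 2, and at most 1 higher in any fit without 1 library. The list's summed level ran the other way, at 74499 to 83346 TPM in cerebellum and 61894 to 73171 TPM in forebrain. The serpin gene Serpine2, which inhibits thrombin, was higher (60.9, 74.8 and 67.8 against 41.5, 39.1 and 40.7 TPM, log2 fold change 0.73, SE 0.09, adjusted p = 0.000713). Its list of 40 integrins, adhesion molecules and matrix enzymes held 5 higher and 7 lower genes in both fits (13.2 and 18.4% of 38, beside 2.91 and 6.13% of all genes).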
